A study of Mus musculus with 10 samples.

Results

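The clustered replication-dependent histone genes were taken as every protein-coding gene in the table of counts whose symbol began with Hist1h, Hist2h, Hist3h or Hist4. This gave 67 genes of the 54146 rows, with 6 coding for linker histone H1, 18 for H2A, 18 for H2B, 12 for H3 and 13 for H4. By cluster, 54 belonged to *Hist1* on chromosome 13, 10 to *Hist2* on chromosome 3, 2 to *Hist3* on chromosome 11 and 1 to *Hist4* on chromosome 6. Another 3 rows with such symbols are annotated as pseudogenes and were left out.

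RNA was sequenced from the lumbar spinal cord of 10 mouse embryos at E12.5, 5 controls and 5 embryos labelled Dot1l-cKO, and reads were counted per gene. Dot1l is the methyltransferase of lysine 79 in histone H3. Litter 1 held 3 embryos of each group and litter 2 held 2 of each. Dot1l-cKO embryos were Wnt1cre2/+; Dot1l fl/fl in both litters. The authors saw Cre activity in many cells, with slightly stronger dorsal signal, and propose that the deletion mostly affects dorsal but also ventral cells. Each sample is thus a mix of cells with and without the deletion. Controls were +/+; Dot1l fl/fl in litter 1 and +/+; Dot1l fl/+ in litter 2, so that the genotype of the controls and the litter cannot be told apart. No control carried the transgene, so its presence and the deletion cannot be told apart either. The strain was B6.Cg-E2f1Tg(Wnt1-cre)2Sor/J for all embryos, and the dorsal root ganglia stayed on the tissue. Single embryos are named as in the sample titles, with Mut for Dot1l-cKO and Ctr for control, followed by the number of the litter and of the animal.

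Histones H2A, H2B, H3 and H4 form the core around which DNA is wound, and H1 binds the DNA between cores. The clustered genes supply new histones while DNA is copied, and dividing progenitors of the ventricular zone are their main site of expression in an embryonic spinal cord. Their mRNAs are known to end in a short stem-loop, bound by the protein SLBP, in place of a poly(A) tail. Some of the genes also give a longer, polyadenylated mRNA from a signal past the stem-loop, chiefly in cells that leave the cell cycle. The libraries were made from poly(A) RNA, so every level below is the part of histone mRNA that such a library keeps and not the histone mRNA content of the cells.

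The stem-loop was searched in the annotated transcripts after the stop codon, since it is the feature that sets the 3' end of these mRNAs apart. It was found in 46 of the 67 genes, in 8 forms, at 21 to 58 bases from the stop codon with a median of 31. The form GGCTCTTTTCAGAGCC was the most frequent, with 26 genes of types H1, H2A, H2B and H3 and none of type H4. The form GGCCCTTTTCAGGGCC occurred in 7 genes, all H4. The lines below print the stem-loop in capitals with 5 bases on either side, in GENCODE transcripts of GRCm38, for the 4 genes among the 6 most counted that have one and for 3 genes with few counts.

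Hist3h2ba: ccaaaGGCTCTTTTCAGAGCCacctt
Hist3h2a: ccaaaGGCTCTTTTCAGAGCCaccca
Hist1h1c: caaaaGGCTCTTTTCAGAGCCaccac
Hist1h4i: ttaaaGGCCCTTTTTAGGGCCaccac
Hist1h2bj: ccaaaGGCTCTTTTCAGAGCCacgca
Hist1h3a: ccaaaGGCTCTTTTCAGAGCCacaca
Hist1h4f: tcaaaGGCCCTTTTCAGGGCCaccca

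The capitals lie at chr11:58949349-58949364 on the plus strand in *Hist3h2ba*, chr11:58955172-58955187 on the plus strand in *Hist3h2a*, chr13:23739512-23739527 on the plus strand in *Hist1h1c* and chr13:22040966-22040981 on the minus strand in *Hist1h4i*. They lie at chr13:22043638-22043653 on the plus strand in *Hist1h2bj*, chr13:23761890-23761905 on the minus strand in *Hist1h3a* and chr13:23551291-23551306 on the minus strand in *Hist1h4f*. Each site is in the 3' UTR. The stem of *Hist3h2ba* is the same in its letters as that of *Hist1h3a*, while their levels were 77.4 and 0.0860 CPM (TMM-scaled counts relative to the size of each library) per kb of exon.

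Few reads fell on these genes. Total counts were between 40949585 and 68928443 per embryo, and all 67 genes together took 0.00983% to 0.0146% of them. Of the 67 genes, 57 had a count in at least 1 embryo, 28 had a count in all 10 embryos and 11 had at least 10 counts in every embryo. In 49 genes no embryo exceeded 20 counts. The default expression filter of edgeR kept 25, and the low counts of the other 42 allow no statement on a difference. A floor of 3 counts corresponded to 0.0428 to 0.0759 CPM, depending on the embryo, and covers counting error only.

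The counts were unevenly spread over the genes. *Hist3h2ba* held 41.4% of all counts on the 67 genes, *Hist3h2a* 25.9%, *Hist2h2be* 16.2%, *Hist1h1c* 4.88%, *Hist1h2bc* 2.96% and *Hist1h4i* 2.92%. Together these 6 genes held 93.0% to 95.5% of the counts in each of the 10 embryos. They code for 3 H2B, 1 H2A, 1 H1 and 1 H4, and no H3 gene is among them. By cluster, the 2 *Hist3* genes held 67.3% of the counts, the 10 *Hist2* genes 17.4%, the 54 *Hist1* genes 15.1% and *Hist4h4* 0.187%. By type, H2B held 62.2%, H2A 27.1%, H1 5.61%, H4 4.06% and H3 1.08%, although nucleosomes hold the core types in equal amounts.

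Per kb of exon, *Hist3h2ba* had the highest mean level with 77.4 CPM per kb, followed by *Hist3h2a* with 13.9, *Hist2h2be* with 7.13, *Hist1h4i* with 4.72, *Hist1h1c* with 3.57 and *Hist1h2bc* with 2.96 CPM per kb. The ranges over the embryos did not overlap between the first 3 of these. *Hist1h4i* lay between 2.27 and 7.73, *Hist1h1c* between 2.27 and 5.00 and *Hist1h2bc* between 2.25 and 3.37 CPM per kb, so that their order is not fixed beyond the spread between embryos. The next 6 were *Hist2h2ac*, *Hist1h2bj*, *Hist2h3c2*, *Hist1h2bg*, *Hist1h2bk* and *Hist1h3c*, with means of 0.849 down to 0.336 CPM per kb. *Hist2h3c2* was the highest H3 gene with 0.532 CPM per kb. The median over all 67 genes was 0.0949 CPM per kb.

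**Figure D1:**
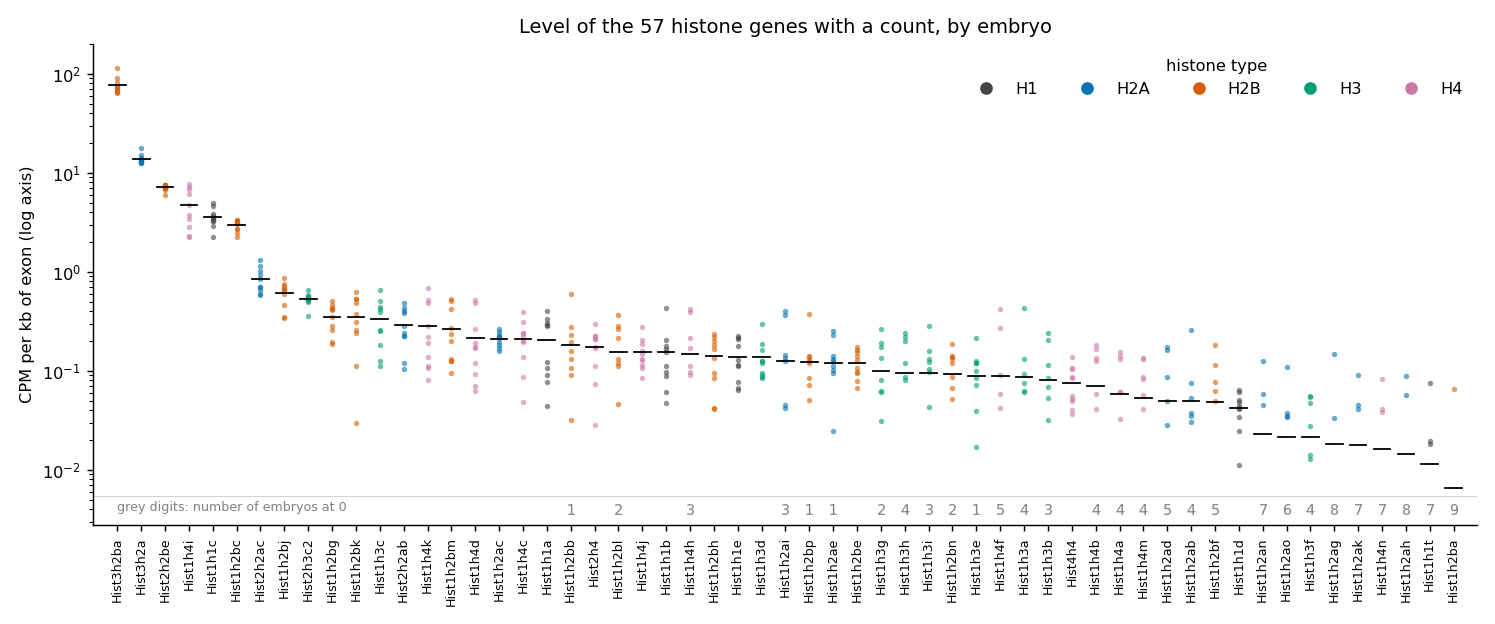
Level of each of the 57 genes with a count, in CPM per kb of exon on a log axis. Points are the 10 embryos, coloured by histone type, bars are means, and grey digits give the number of embryos at 0. *Hist3h2ba* stands at 77.4 CPM per kb and the 6th gene, *Hist1h2bc*, at 2.96, above the 7th, *Hist2h2ac*, at 0.849.

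At the low end, 10 genes had no count in any embryo, namely 5 H2A (*Hist1h2aa*, *Hist1h2af*, *Hist1h2ap*, *Hist2h2aa1* and *Hist2h2aa2*), 3 H2B (*Hist1h2bq*, *Hist1h2br* and *Hist2h2bb*) and 2 H3 (*Hist2h3b* and *Hist2h3c1*). The 5 *Hist2* genes in this list have all their exon bases inside other annotated genes, and no window of 75 bases, the read length, is unique to them. *Hist2h2aa1* and *Hist2h2aa2* have the same coding sequence, as do *Hist1h2ao* and *Hist1h2ap*, *Hist1h2bq* and *Hist1h2br*, and *Hist1h4m* and *Hist1h4n*. In 16 of the 67 genes fewer than 20% of the windows are unique, and these 16 held 82 counts in all, with 9 of them at 0. How reads with several matches were counted followed the defaults of the authors' workflow, which the sources used here do not spell out, so for these genes a count of 0 is uncertain. *Hist1h2aa* differs, with 82.6% of its windows unique and still 0 counts, although 129 of its 390 exon bases are shared with *Gm44344* on the other strand.

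The 3 genes known from testis were near or at 0. *Hist1h1t*, the testis linker histone, had 5 counts over 3 embryos, *Hist1h2ba*, the testis H2B, had 1 count in 1 embryo, and *Hist1h2aa* had 0. *Hist4h4*, the lone gene of its cluster on chromosome 6, had 5 to 24 counts per embryo.

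Exon bases are shared with another annotated gene in 24 of the 67 genes, mostly with a small gene on the other strand inside an H2A gene. The library kit does not mark strand, so reads of such partners cannot be told apart. *Hist3h2a* shares 708 of its 2146 exon bases, with *Trim17* and *Gm44313*, and its level is uncertain to that extent. *Hist1h1e* shares 496 of its 1930 exon bases, with *Gm11398* and *Hist1h2be*. The other 5 of the 6 most counted genes share none.

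The annotated 3' end differed between the genes with many and with few counts. Of the 46 genes with a stem-loop, 23 have a transcript annotated over 100 bases past it, and these held 78.7% of all counts. The 23 genes whose annotation ends within 100 bases of the stem-loop held 1.56%. In the other 21 genes no stem-loop lay in the annotated transcript. Of those 21, 4 had over 100 bases after the stop codon and held 19.1% of the counts, all on *Hist2h2be* and *Hist1h2bc*, and 17 with up to 100 bases held 0.638%. A poly(A) signal (AATAAA or ATTAAA) within the last 40 bases was present in 17 of the 67 transcripts, which held 92.6% of the counts. All of the 6 most counted genes but *Hist1h2bc* are among these 17. Median levels were close, at 0.124 CPM per kb with the signal and 0.0907 CPM per kb in the 50 without it.

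All 6 most counted genes have a long 3' end. The transcripts extend 169 bases past the stem-loop in *Hist3h2ba*, 1643 in *Hist3h2a*, 840 in *Hist1h1c* and 330 in *Hist1h4i*. *Hist2h2be* has 2192 and *Hist1h2bc* 742 annotated bases after the stop codon, with no stem-loop match in them. A long annotated end did not go with a high level in each gene. Without the 6 most counted, the genes annotated over 100 bases past the stem-loop were 19, with a median level of 0.137 CPM per kb and a highest of 0.532. *Hist1h2ac* extends 2010 bases past the stem-loop and stood at 0.210 CPM per kb, and *Hist1h1d*, with 4884 bases, at 0.0422 CPM per kb. Counts over a gene do not show where in the gene the reads lay.

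**Figure D2:**
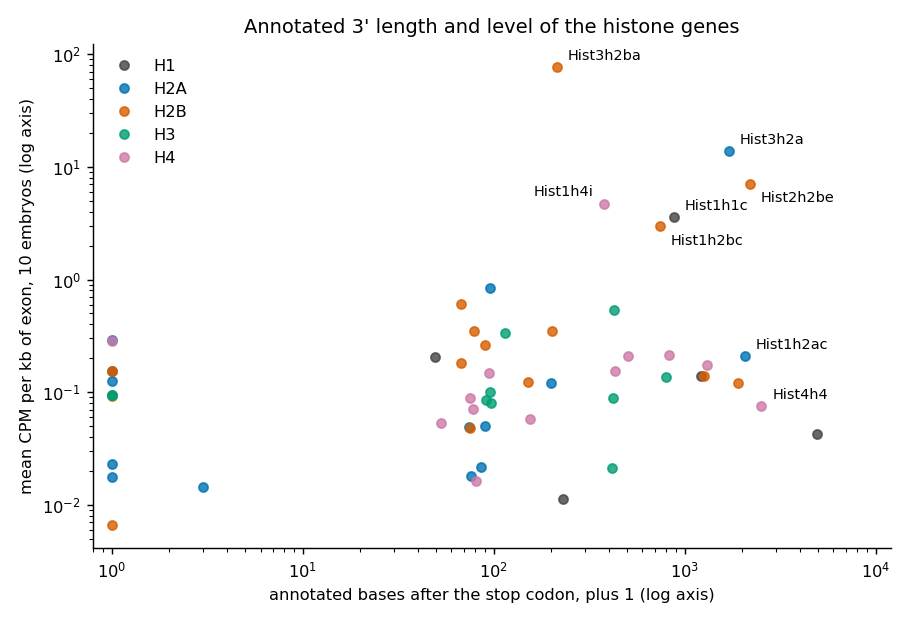
Annotated bases after the stop codon (plus 1, log axis) against mean CPM per kb of exon over 10 embryos (log axis), for the 57 genes with a count, coloured by histone type. The 6 highest genes lie between 213 bases (*Hist3h2ba*) and 2192 bases (*Hist2h2be*), and *Hist1h2ac*, with 2058 bases, stands at 0.210 CPM per kb.

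Promoters of 61 of the 67 genes were matched in RefSeq (GRCm38.p6, 250 bases before to 50 after the start) and searched on both strands. The letters CCAAT were in all promoters of types H1 (5 of 5), H2A (18 of 18), H2B (16 of 16) and H3 (10 of 10) and in 3 of 12 of type H4, against 37.4% of all promoters in the table. The letters TATAAA were in 34 of 61, against 13.6% of all promoters. The octamer ATTTGCAT was in 7 of 18 H2A and 6 of 16 H2B promoters and in none of the other 3 types, against 1.74% of all. AAACACA was in 4 of 5 H1 promoters and 7.18% of all. The promoter of *Hist3h2a* holds the octamer and that of *Hist3h2ba* does not.

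Before the comparison by genotype, some differences between embryos need to be given. *Dot1l* itself was counted at 87.6 to 107 CPM in controls and 97.8 to 112 CPM in Dot1l-cKO, which does not check the genotypes, and embryos are named by their labels. Both Dot1l-cKO embryos of litter 2 had 183 and 164 CPM on chromosome Y genes, against 1.93 to 6.11 CPM in the other 8 embryos. They had 6.00 and 6.79 CPM of *Xist*, against 499 to 890 CPM in the other 8. In litter 2 these differences and the genotype cannot be told apart, and they also enter the genotype fit over both litters. In the comparison of litters within Dot1l-cKO they cannot be told apart from the litter. Litter 2 had a higher summed level of 15 S phase genes (1495 to 1855 CPM, against 704 to 981 in litter 1), of 8 neural progenitor genes (3471 to 3673, against 2475 to 2949 CPM) and of 9 erythroid genes (1350 to 2077, against 871 to 1022 CPM). It had a lower sum of 8 sensory neuron genes of the dorsal root ganglion (342 to 497, against 596 to 889 CPM), with no list overlapping between the litters. The 8 neuron genes overlapped, at 7625 to 8101 CPM in litter 2 and 7904 to 8601 CPM in litter 1. In bulk tissue, fewer cells of a type and less RNA per cell cannot be told apart.

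The first comparison asked whether the clustered histone genes differ between embryos labelled Dot1l-cKO and controls. None of the 25 genes tested passed an adjusted p of 0.05 in the quasi-likelihood test of edgeR, fitted with litter and genotype (Benjamini-Hochberg adjustment over 19773 genes), where 2.99% of all tested genes did. At an unadjusted p below 0.05 there were 2, *Hist3h2ba* and *Hist1h1c*, or 8% of the 25 against 21.7% of all tested genes. DESeq2 called 1, *Hist3h2ba*, of the 10 to which it gave an adjusted p (background 8.98%), and limma-voom called 0 (background 2.15%). The log2 fold changes lay between -0.31 and 0.97 with a median of 0.15, against -0.01 for all genes tested. That median was 0.32 without control Ctr_190-7, 0.086 without embryo Mut_181-3 and 0.40 without the expression filter, over 57 members. Of the 25, 19 were above 0 (background 48.0%), a count over genes that passed the filter only.

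*Hist3h2ba*, an H2B gene, lay closest to the threshold. In litter 1 it was at 44.8, 43.9 and 40.2 CPM in controls and at 50.4, 70.2 and 46.2 CPM in Dot1l-cKO. In litter 2 it was at 41.5 and 38.9 CPM in controls and at 43.2 and 55.7 CPM in Dot1l-cKO. Every Dot1l-cKO embryo was thus above every control of its litter, and embryo Mut_181-3 was the highest. The log2 fold change was 0.34 (SE 0.10, adjusted p = 0.0765, edgeR). DESeq2 gave an adjusted p of 0.0195. Without embryo Mut_181-3 the log2 fold change was 0.23 (edgeR adjusted p = 0.117), and without Dot1l-cKO embryo Mut_181-7 it was 0.40 (edgeR adjusted p = 0.0261). Without the expression filter the edgeR adjusted p of *Hist3h2ba* was 1.18e-06 and 2 members were called (background 6.25%), and without embryo Mut_181-7 there were 2 as well (background 7.01%).

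*Hist3h2ba* was the only gene of the 25 in which all Dot1l-cKO embryos lay above all controls within both litters, where 3.80% of all tested genes did. No gene lay below in both (background 4.15%). Its neighbour *Hist3h2a*, an H2A gene on the same strand of chromosome 11, did not separate the groups. *Hist3h2a* was at 28.0, 30.6 and 29.4 CPM in controls and 32.3, 28.3 and 38.3 CPM in Dot1l-cKO of litter 1. In litter 2 it was at 27.2 and 28.2 CPM in controls and 27.2 and 27.7 CPM in Dot1l-cKO. Its log2 fold change was 0.10 (SE 0.08, adjusted p = 0.484, edgeR), and 0.021 without embryo Mut_181-7. The embryo with the most *Hist3h2a* was Mut_181-7, while the embryo with the most *Hist3h2ba* was Mut_181-3.

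*Hist1h1c*, which codes for a somatic linker histone, was at 5.11, 5.71 and 5.92 CPM in controls and 7.81, 7.25 and 5.49 CPM in Dot1l-cKO of litter 1. It was at 3.54 and 4.55 CPM in controls and 5.03 and 5.34 CPM in Dot1l-cKO of litter 2. The groups overlapped in litter 1 through embryo Mut_181-7 and did not overlap in litter 2. The log2 fold change was 0.32 (SE 0.11, adjusted p = 0.126, edgeR), and without embryo Mut_181-7 it was 0.40 (edgeR adjusted p = 0.0340).

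*Hist2h2be* and *Hist1h2bc*, both H2B genes, were level across the groups. *Hist2h2be*, best known from olfactory sensory neurons, was at 18.3 ± 1.70 CPM in controls and 19.0 ± 0.733 CPM in Dot1l-cKO (SD, n = 5 each; log2 fold change 0.05, SE 0.07). *Hist1h2bc* was at 3.40 ± 0.539 and 3.44 ± 0.441 CPM (SD, n = 5 each; log2 fold change 0.02, SE 0.14).

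*Hist1h4i*, the most counted H4 gene, varied the most among the 6. It was at 1.65, 2.48 and 2.75 CPM in controls and 2.06, 5.62 and 1.65 CPM in Dot1l-cKO of litter 1, and at 3.44 and 4.40 CPM in controls and 5.26 and 4.98 CPM in Dot1l-cKO of litter 2. Embryo Mut_181-3 was above its littermates of either group. The log2 fold change was 0.41 (SE 0.27, adjusted p = 0.406, edgeR), and without embryo Mut_181-3 it was 0.034 (edgeR adjusted p = 0.944).

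**Figure D3:**
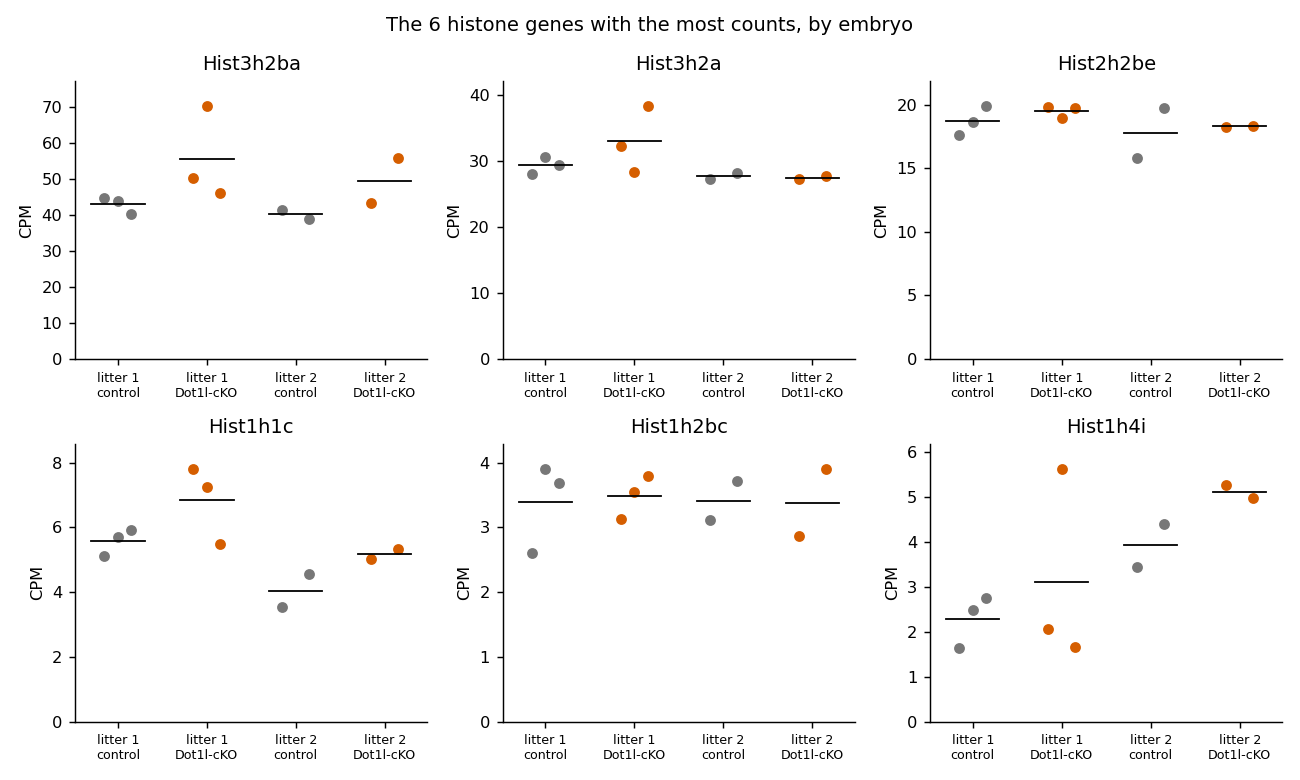
CPM of the 6 most counted genes in each embryo (points), by litter and group, with the mean of each group as a bar and each axis starting at 0. *Hist3h2ba* separates the groups within both litters, from 43.2 CPM upward in Dot1l-cKO of litter 2 against at most 41.5 CPM in its controls, and *Hist1h4i* is high in embryo Mut_181-3 with 5.62 CPM.

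The other genes by smallest p had few counts. *Hist1h2bh*, an H2B gene, had 4, 3, 17, 8 and 9 counts in controls and 20, 17, 10, 21 and 24 in Dot1l-cKO, with a log2 fold change of 0.90 (SE 0.42, adjusted p = 0.231, edgeR), or 1.37 without control Ctr_181-9 (edgeR adjusted p = 0.0994). *Hist1h3c*, an H3 gene, had 4, 7, 10, 4 and 11 counts in controls and 15, 18, 8, 15 and 25 in Dot1l-cKO, with a log2 fold change of 0.86 (SE 0.43, adjusted p = 0.268, edgeR). *Hist1h4d*, an H4 gene, had 6, 6, 12, 4 and 12 counts in controls and 13, 33, 5, 11 and 33 in Dot1l-cKO, with a log2 fold change of 0.97 (SE 0.55, adjusted p = 0.325, edgeR). Without embryo Mut_181-3 the log2 fold change of *Hist1h4d* was 0.47 (edgeR adjusted p = 0.669). The groups overlapped in all 3 genes, and the counts are given in the order of the litters. At this depth the differences did not hold up against the spread between embryos.

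Within litter 1 no member passed an adjusted p of 0.05 (edgeR, 4-group model over all 10 embryos, background 0.612%), and 1 had an unadjusted p below 0.05 (background 15.4%). Within litter 2 none passed (background 0.202%), and 0 had an unadjusted p below 0.05 (background 17.1%). Without the expression filter *Hist3h2ba* was called in each litter, where 3.96% of all genes were called in litter 1 and 3.79% in litter 2. The log2 fold change of *Hist3h2ba* was 0.37 (SE 0.13) in litter 1 and 0.30 (SE 0.16) in litter 2, and that of *Hist1h1c* was 0.29 (SE 0.15) and 0.36 (SE 0.19). The difference of the genotype effect between litters passed in no member (background 0.0101%), with 1 at an unadjusted p below 0.05 (background 8.19%). That gene was *Hist1h2bm*, named here after its values were seen, with 3 to 15 counts per embryo.

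The genes were also summed, as a description with no test. All 67 genes together were at 105, 110 and 108 CPM in controls and 121, 143 and 121 CPM in Dot1l-cKO of litter 1, and at 100.2 and 107 CPM in controls and 109 and 124 CPM in Dot1l-cKO of litter 2. The sums did not overlap within either litter, and *Hist3h2ba* was the largest single part of the sum in each embryo. Without it the other 66 genes were at 60.4 to 67.7 CPM in controls and 70.5 to 74.9 CPM in Dot1l-cKO of litter 1. In litter 2 those sums overlapped, at 58.7 and 68.2 CPM in controls and 66.1 and 68.5 CPM in Dot1l-cKO.

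The 61 genes below the 6 most counted summed to 5.14 to 6.09 CPM in controls of litter 1 and to 5.41, 9.25 and 5.96 CPM in its Dot1l-cKO embryos. In litter 2 they summed to 5.64 and 7.54 CPM in controls and 7.50 and 8.20 CPM in Dot1l-cKO. Embryo Mut_181-3 stood above all others. Summed by type over these 61 genes, Mut_181-3 was above the other Dot1l-cKO embryos of litter 1 for H4, at 2.36 CPM, the highest of the 10 embryos, for H3, at 1.72 CPM against 1.12 and 1.08, and for H2B, at 2.27 against 1.40 and 1.78. It was also above them for H2A, at 1.88 CPM against 1.25 and 1.40, and for H1, at 1.02 against 0.449 and 0.628. Over all 10 embryos it was not the highest for H2B, where Ctr_190-7 had 2.38 CPM, nor for H1, where Mut_190-4 had 1.25 CPM. The S phase genes summed to 934 CPM in Mut_181-3, against 704 and 857 CPM in the other Dot1l-cKO embryos of litter 1 and 929 to 981 CPM in its controls. The neural progenitor genes were at 2860 CPM in it, against 2475 and 2597 in those Dot1l-cKO embryos and 2797 to 2949 CPM in the controls. The part of either list in the histone values of this embryo was not tested.

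The 23 RNAs known to lack a poly(A) tail were summed as a measure of what else such a library keeps. They were at 7.80 CPM in Mut_181-3, within the 7.50 to 10.7 CPM of the 10 embryos, but *Snord104* made up the larger part of this sum in all embryos except Ctr_190-5. The other 22 were at 3.17 to 4.06 CPM in controls and 1.75 to 3.17 CPM in Dot1l-cKO, with 2.11 CPM in Mut_181-3. They were thus lower in Dot1l-cKO of litter 2, without overlap, while the groups of litter 1 met at 3.17 CPM. With the log2 of that sum of 22 as a covariate, chosen after seeing the data, the log2 fold change of *Hist3h2ba* for genotype was 0.17 (SE 0.17, adjusted p = 0.999, edgeR), that of *Hist1h1c* was -0.06 (SE 0.14) and that of *Hist1h4i* -0.18 (SE 0.47). The median over the 25 members was 0.012. The same fit called 4 genes of all 19773, where 591 were called without the covariate. The sum of 22 was on average 3.47 CPM in controls and 2.41 CPM in Dot1l-cKO, and *Rn7sk* in it passed as lower in Dot1l-cKO. The covariate and the genotype thus cannot be told apart in this fit, and nothing is concluded from it on the histone genes. With *Snord104* in the sum, *Hist3h2ba* stood at 0.38 (SE 0.10, adjusted p = 0.0649, edgeR).

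The second comparison was between the litters. *Hist1h1c* was lower in litter 2 and *Hist1h4i* was higher, so 1 gene of 25 passed in each direction, where 16.9% of all tested genes were higher and 17.8% lower (34.7% in all). For *Hist1h1c* the log2 fold change of litter 2 against litter 1 was -0.43 (SE 0.12, adjusted p = 0.0106, edgeR). It was past the threshold under each of the 18 alternatives that kept both groups, and had adjusted p of 0.0663 in controls alone and 0.108 in Dot1l-cKO alone (edgeR). Each of the 4 embryos of litter 2 lay below all embryos of litter 1 but Ctr_181-4, at 3.54 to 5.34 CPM against 5.11 to 7.81 CPM.

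For *Hist1h4i* the log2 fold change was 0.75 (SE 0.27, adjusted p = 0.0463, edgeR), and 13 of 20 alternatives lost the call, with adjusted p up to 0.211. Without embryo Mut_181-3 it was 1.09 (edgeR adjusted p = 0.000493). Apart from that embryo litter 1 lay at 1.65 to 2.75 CPM and litter 2 at 3.44 to 5.26 CPM. The other histone genes did not pass, among them *Hist3h2ba* (log2 fold change -0.13, SE 0.10), *Hist3h2a* (-0.17, SE 0.08), *Hist2h2be* (-0.08, SE 0.07) and *Hist4h4* (0.79, SE 0.37). The median over the 25 was -0.02, as for all genes tested.

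All 15 S phase genes were higher in litter 2 by the same test (background 16.9%), with a median log2 fold change of 0.90. Of the 25 histone genes tested, 12 had a litter value above 0 (background 47.6%), 1 of the 6 most counted and 11 of the other 19, where the median was 0.14. The part of the S phase, progenitor, sensory neuron and erythroid differences in the litter values of the histone genes was not tested.

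**Figure D4:**
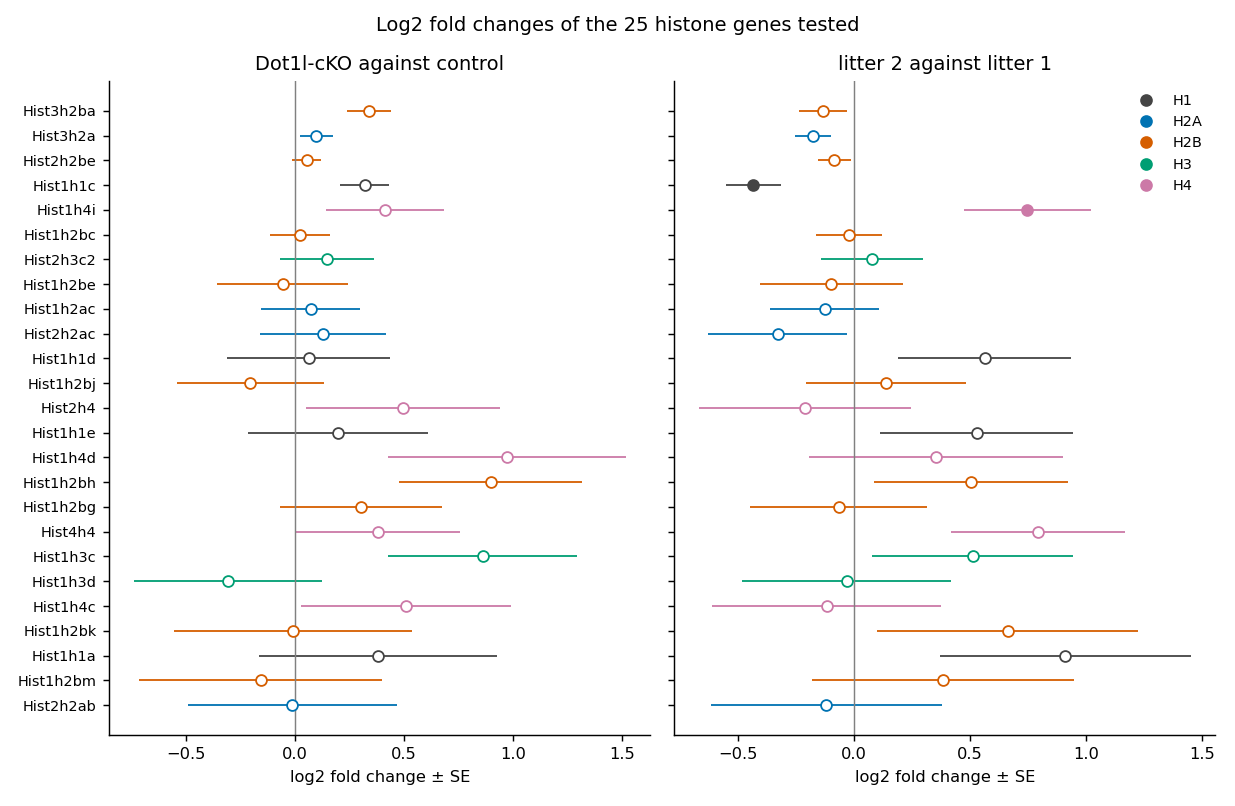
Log2 fold change with SE of the 25 genes tested, for Dot1l-cKO against control (left) and litter 2 against litter 1 (right), ordered by mean CPM with the highest on top and coloured by histone type. Filled points passed an adjusted p of 0.05 in edgeR's test, which were *Hist1h1c* (-0.43) and *Hist1h4i* (0.75) for the litter and no gene for the genotype.

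The genes that handle histone mRNA and histones were taken from lists of well-known members. Of 15 genes listed for histone mRNA processing 12 were tested, and of these none passed for genotype (background 2.99%), with 2 at an unadjusted p below 0.05 (background 21.7%), 0 by DESeq2 (background 8.98%) and a median log2 fold change of -0.09. *Slbp*, whose product binds the stem-loop, was at 50.5 ± 12.4 CPM in controls and 46.7 ± 8.05 CPM in Dot1l-cKO (SD, n = 5 each; log2 fold change -0.10, SE 0.06, adjusted p = 0.364, edgeR). *Npat*, an activator of histone gene transcription, had a log2 fold change of -0.16 (SE 0.06), and *Casp8ap2*, a factor of 3' end cleavage, of -0.14 (SE 0.04). *Rnu7*, the small RNA of the same reaction, was at 0 in all embryos. Between litters, 7 of the 12 were higher in litter 2 (background 16.9%) and 1 was lower (background 17.8%), with *Slbp* at 0.51 (SE 0.06, adjusted p = 2.39e-05, edgeR).

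Of 15 histone chaperones, which carry histones to and from DNA, 1 fell in Dot1l-cKO (background 1.09%) and none rose (background 1.90%), with 9 at an unadjusted p below 0.05 (background 21.7%). This was *Chaf1b*, a subunit of the chromatin assembly factor CAF-1, at 21.8 ± 7.39 CPM in controls and 17.6 ± 5.99 CPM in Dot1l-cKO (SD, n = 5 each; log2 fold change -0.30, SE 0.07, adjusted p = 0.0444, edgeR). DESeq2 called 5 of the 15 (background 8.98%). The median of the list was -0.13, and 12 of the 15 were higher in litter 2 (background 16.9%). Of the 15 S phase genes 2 fell in Dot1l-cKO (background 1.09%), *Pcna* and *Mcm6*, with a list median of -0.17, 9 at an unadjusted p below 0.05 (background 21.7%) and 4 called by DESeq2 (background 8.98%). Among other lists, with the same backgrounds (21.7% at an unadjusted p below 0.05), 1 of 8 neuron genes (*Nefl*) fell, 1 of 9 erythroid genes (*Hbb-bh1*) rose, and none of 8 progenitor genes (0 at an unadjusted p below 0.05, 0 by DESeq2) and none of 8 sensory neuron genes (4 at an unadjusted p below 0.05, 1 by DESeq2) passed in edgeR. In litter 1 the sensory neuron sum was lower in Dot1l-cKO (596 to 778 CPM, controls 831 to 889). In litter 2 it was higher (436 to 497, controls 342 to 355), as was the erythroid sum (1666 to 2077, controls 1350 to 1477). The S phase sum was lower there (1495 to 1609, controls 1647 to 1855). The erythroid and S phase sums overlapped in litter 1, and the progenitor and neuron sums in both litters. The part of these sums in the histone values was not tested. Of 23 RNAs known to lack a poly(A) tail 7 were tested and 1, *Rn7sk*, fell (background 1.09%; log2 fold change -0.75, SE 0.18, adjusted p = 0.0451, edgeR).

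Of 11 histone genes that lie outside the clusters, chiefly genes of replacement variants, 2 rose in Dot1l-cKO (background 1.90%) and none fell (background 1.09%). Both code for histone H3.3. *H3f3a* was at 199 ± 12.0 CPM in controls and 263 ± 30.5 CPM in Dot1l-cKO (SD, n = 5 each; log2 fold change 0.40, SE 0.07, adjusted p = 0.0167, edgeR), and *H3f3b* was at 829 ± 42.4 and 971 ± 57.8 CPM (log2 fold change 0.23, SE 0.05, adjusted p = 0.0393, edgeR). The other 9 did not pass. *H1fx*, chosen after its values were seen, was at 28.1, 45.4 and 11.6 CPM in the Dot1l-cKO embryos of litter 1 and 38.4 and 48.8 CPM in those of litter 2, so that Mut_181-3 was again the highest of its group in litter 1, and 9.88 to 22.7 CPM in controls (log2 fold change 0.94, SE 0.31, adjusted p = 0.105, edgeR).

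Most clustered histone genes lay below those outside the clusters per kb of exon, but the 2 kinds overlapped. The 11 genes outside the clusters lay between 7.36 and 302 CPM per kb, with *H3f3b* the highest. Of the 67 clustered genes, *Hist3h2ba* and *Hist3h2a* fell inside this range, and the other 65 lay below it. Because the library keeps poly(A) RNA, this compares what was captured and not the amounts made.

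**Figure D5:**
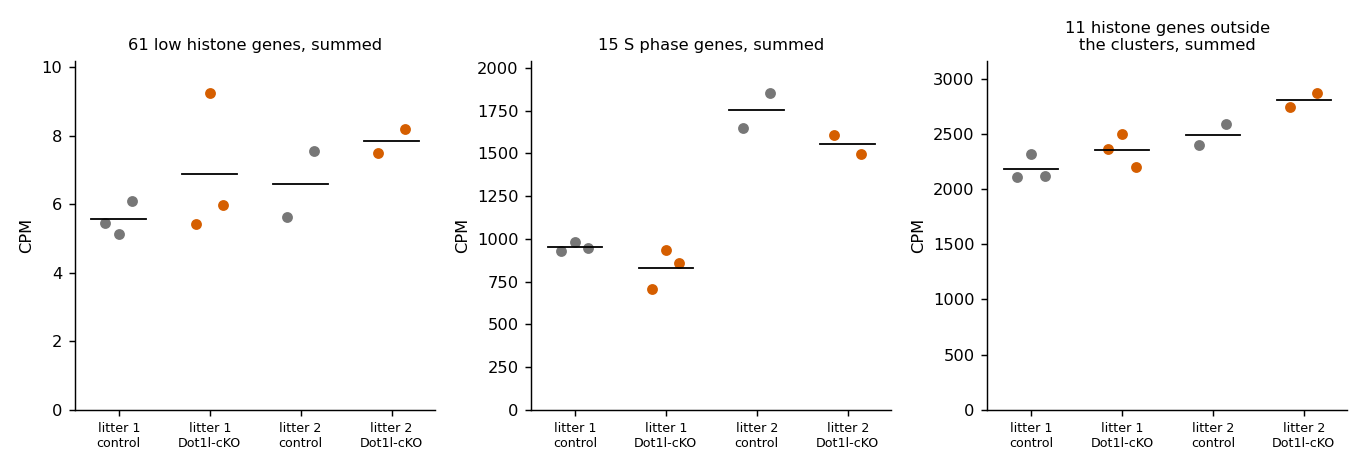
Summed CPM in each embryo (points) with group means (bars), by litter and group, for the 61 low clustered histone genes (left), 15 S phase genes (middle) and 11 histone genes outside the clusters (right), each axis from 0. The 61 genes reach 9.25 CPM in embryo Mut_181-3 while the S phase genes differ by litter, at 704 to 981 against 1495 to 1855 CPM.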

How the data were processed

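Poly(A) RNA libraries of 10 lumbar spinal cords (12 PCR cycles, a kit that does not mark strand) were sequenced in pairs of 75 bases. The authors trimmed the reads with TrimGalore, aligned them to mm10 with STAR and deposited raw counts per gene from featureCounts, without normalization. These steps were run through the RNA-seq workflow of snakePipes with its default settings, and the defaults for strand and for reads with several matches are not spelled out in the sources used here. Names, positions and transcripts came from GENCODE M21 (GRCm38), which matched 54079 of the 54146 gene identifiers, and the authors' annotation (M18) was not used here. The members and lists were chosen with earlier results of these data known.

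With R 4.3.3, edgeR 4.0.16 (quasi-likelihood test, TMM, default filter), DESeq2 1.42.0 and limma 3.58.1 were run on the counts with litter and genotype in the model, and a 4-group model gave effects within litters. SE is the log2 fold change divided by the square root of F. Calls used an adjusted p of 0.05. The scripts were tested on simulated data. Each pair of embryos in a group differed beyond sampling noise, so each embryo was 1 replicate. Named members were the 12 with the highest CPM per kb, those past the threshold, the 5 with the smallest p for genotype, and 6 chosen by role. For each member, the annotated transcript with the longest 3' end was used. Alternatives were the normalization, the filter, the test, a covariate of RNAs without a poly(A) tail, a model without litter, and leaving out each embryo. The covariate without *Snord104* was added after seeing the data.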

Additional observations from a re-analysis of the deposited data

How the results depend on the processing

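For the genotype over both litters, where 0 members were called, edgeR without the expression filter called 2 (*Hist3h2ba* and *Hist1h4i*; 6.25% of all genes), and DESeq2 called 1 (8.98%). Leaving out each embryo in turn gave 0 to 2 calls, with 2 (*Hist3h2ba* and *Hist1h1c*) without Dot1l-cKO embryo Mut_181-7. Over all genes these fits called from 0.260% (without Mut_190-6) to 7.01% (without Mut_181-7, the highest). Within litter 1 and within litter 2 the unfiltered fit called 1 each, *Hist3h2ba* (3.96% and 3.79% of all genes), and the difference between litters had 0 calls in all 12 alternatives, which called 0.00490% to 1.24% of all genes. For the litter, 2 members were called in the main test, 1 (*Hist1h1c*) by DESeq2 (35.2% of all genes) and with the sum of RNAs without a poly(A) tail as a covariate (27.2%), 0 in controls alone (24.2%), 0 in Dot1l-cKO alone (21.3%), and 1 to 3 when an embryo was left out (28.7% to 35.5%). *Hist3h2a* was called lower in litter 2 with library size scaling alone, without the filter, without embryo Mut_181-3 and with the covariate without *Snord104*, and *Hist4h4* higher without embryo Mut_190-4. The median log2 fold change for genotype was 0.15, and it was 0.40 without the filter and 0.36 by DESeq2, both over 57 members, and 0.086 to 0.32 with an embryo left out, the highest without control Ctr_190-7. The median for litter was -0.02, 0.14 by DESeq2, and -0.04 to 0.10 with an embryo left out. The cause of these changes was not tested, other than that the fits without a filter cover more members. With the sum of RNAs without a poly(A) tail but without *Snord104* as a covariate, chosen after seeing the data, the median for genotype was 0.012, and the log2 fold change for genotype turned to -0.056 for *Hist1h1c*, -0.019 for *Hist1h2bh*, -0.26 for *Hist1h3c*, -0.79 for *Hist1h4d* and -0.18 for *Hist1h4i*. That covariate was lower in Dot1l-cKO on average, so it and the genotype cannot be told apart in this fit. The log2 fold change of *Hist1h2bc* for genotype was -0.019 with the whole sum as a covariate, -0.011 in litter 2 alone and -0.066 to 0.095 with an embryo left out, and that of *Hist3h2a* was -0.011 in litter 2 alone. Of the 9 members whose genotype value and the 6 whose litter value is printed, no other value changed its sign. With an embryo left out, values near 0 moved by over 1.5 times for *Hist2h2be* (genotype 0.012 to 0.11, litter -0.15 to -0.027) and, for the litter, *Hist3h2ba* (-0.20 to -0.035) and *Hist3h2a* (-0.21 to -0.11). The groups were matched by litter in the model, and single embryos were not paired because the groups share no replicate number. Depth limits every statement on the 61 genes below the 6 most counted.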
